A study of Mus musculus with 3 samples.

Results

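The subject is a set of 10 receptor genes of pigment cells and of growth factor signalling, Kit, Met, Ednrb, Mc1r, Egfr, Erbb2, Fgfr1, Pdgfra, Pdgfrb and Axl. They were chosen by name, as all probe sets whose only annotated gene symbol was one of these, which gave 27 of the 45101 probe sets of the array and 10 of 18194 genes. The cells were melan-a NRAS61K cells, immortalized mouse melanocytes that carry the NRAS61K oncogene, an activated form of the small GTPase NRAS. All 3 cultures carried this oncogene and received doxycycline at 1 µg/ml. They differed in the time of treatment, which was 6, 14 or 28 days. The labels do not say which gene the drug controlled, whether the line was a single clone, or how the cultures were related. The treatment protocol also lists a further time point that was not analysed here, nor was any untreated culture. Each time point had 1 Affymetrix array of total RNA, so every difference below compares 2 arrays, with no estimate of the spread between cultures and no p-value.

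Receptor tyrosine kinases pass a growth factor signal from the cell surface to RAS and to phosphatidylinositol 3-kinase. The pathway thus runs from receptor to RAS, and NRAS61K acts below the receptors. In melanocytes KIT and the endothelin receptor EDNRB are needed for migration and survival of the lineage, while MC1R, which couples to cyclic AMP, drives the switch to dark pigment. MET, the EGF, FGF and PDGF receptors and AXL are better known from epithelial, mesenchymal and tumour cells, and AXL is high in melanoma cells with low pigment gene expression.

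The deposited values were on a scale taken as log2, with a median of 22.91 on every array. Each array had a background, set from 94 probe sets of 66 genes that pigment cells are known not to use, at the 90th percentile of their values. In order of time it stood at 22.75, 22.61 and 22.81. A gene was represented by its brightest probe set, called the main one. A gene was described in a comparison when that probe set exceeded the background in either culture. Genes are called 2-fold apart where their log2 values differ by at least 1. Without replicates, error could be read only from how far probe sets of the same gene disagree where both exceed the background. The SD of that disagreement was 0.42 in the comparison of day 28 with day 6, 0.41 in that of day 14 with day 6 and 0.32 in that of day 28 with day 14. It holds the disagreement of probe sets on the same arrays. An error that these share on an array, and any error of culture, are not in it. A lower log2 value in a culture can come from fewer cells that express a gene or from less RNA per cell, and the arrays cannot tell these apart.

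Of the 10 receptor genes, 8 lay above the background on all 3 arrays, Ednrb did so only at day 6 and Kit on no array. Mc1r, Fgfr1 and Pdgfra were 2-fold higher at day 28 than at day 6, each by its own course. Fgfr1 was already higher at day 14, Pdgfra was higher mainly at day 28, and Mc1r was higher in both steps. Met, Egfr, Erbb2, Pdgfrb and Axl differed by less than 2-fold in each of the 3 comparisons as deposited.

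Promoters are shown for the members that were 2-fold apart in any comparison and had an entry in the RefSeq promoter table of GRCm38.p6, which runs from 250 bases before to 50 bases after an annotated start. Of the 10 genes 8 had an entry, and Fgfr1 and Pdgfrb are named only. Capitals mark matches, on either strand, to CATGTG (the core of the M-box, an element bound by the melanocyte factor MITF), CACGTG (an E-box), TGANTCA (bound by AP-1) and GGGCGG (a GC box). The sequences are for Mc1r at chr8:123406832-123407131 on the plus strand, for Pdgfra at chr5:75152001-75152300 on the plus strand and for Ednrb at chr14:103843652-103843951 on the minus strand, each read along the gene.
Mc1r: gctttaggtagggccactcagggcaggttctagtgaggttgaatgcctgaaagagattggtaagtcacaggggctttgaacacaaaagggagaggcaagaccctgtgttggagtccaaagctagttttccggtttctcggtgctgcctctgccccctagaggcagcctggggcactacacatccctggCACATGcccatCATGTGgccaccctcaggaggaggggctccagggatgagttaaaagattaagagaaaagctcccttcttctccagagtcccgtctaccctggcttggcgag
Pdgfra: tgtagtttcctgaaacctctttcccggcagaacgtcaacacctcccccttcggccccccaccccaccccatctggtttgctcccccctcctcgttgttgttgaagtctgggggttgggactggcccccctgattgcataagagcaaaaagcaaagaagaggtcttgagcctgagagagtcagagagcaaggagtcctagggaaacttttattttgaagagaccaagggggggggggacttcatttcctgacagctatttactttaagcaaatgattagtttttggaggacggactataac
Ednrb: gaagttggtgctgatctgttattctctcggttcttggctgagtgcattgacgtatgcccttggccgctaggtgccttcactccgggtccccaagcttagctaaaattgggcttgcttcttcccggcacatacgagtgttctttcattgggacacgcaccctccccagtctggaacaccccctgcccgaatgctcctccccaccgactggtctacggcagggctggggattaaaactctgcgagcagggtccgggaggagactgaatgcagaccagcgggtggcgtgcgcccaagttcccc
The Mc1r window held 2 matches to CATGTG, which start 62 and 51 bases before the annotated start. Of all 32851 windows of this length, 14.2% held this motif. The Pdgfra and Ednrb windows held none of the 4 motifs. Among the windows of the other members, that of Met held CACGTG and TGANTCA, found in 7.15% and 7.81% of all windows, and GGGCGG stood in those of Kit, Met, Egfr and Axl, against 35.7% of all. A match is a run of letters and not evidence of binding.

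**Figure D1:**
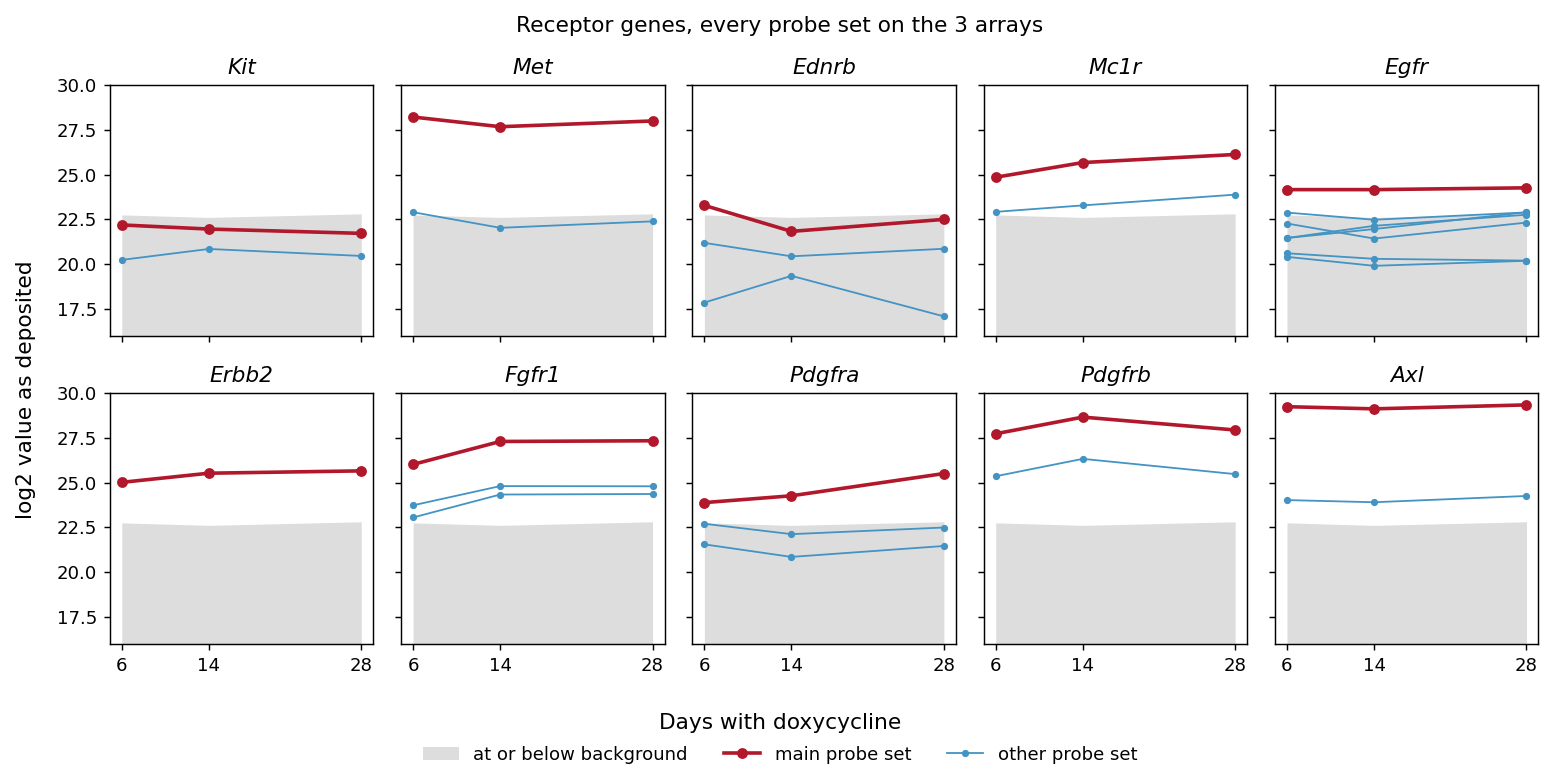
Log2 value as deposited (vertical axis) against days with doxycycline (horizontal axis) for each receptor gene. The red line is the main probe set, blue lines are other probe sets, and the grey area is at or below the background of 22.75, 22.61 and 22.81. All Fgfr1 lines step up together between days 6 and 14, only 1 of the Pdgfra lines leaves the grey area, and both Kit lines stay inside it.

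Of Kit, Ednrb and Mc1r, the 3 introduced above by their part in melanocytes, only Mc1r, the receptor for melanocortins, was measured at every time. Its main probe set gave 24.85 at day 6, 25.67 at day 14 and 26.12 at day 28. Each later array was thus higher than the one before. At day 28 Mc1r was 2.42-fold higher than at day 6, a log2 difference of 1.27, and 6.10% of the described genes lay at least as far apart. The step to day 14 was 0.82 and the step from day 14 to day 28 was 0.45. A second probe set, just above the background at day 6, gave 22.92, 23.28 and 23.88 in order of time. It kept the same order, with a difference of 0.96 for day 28 against day 6, just under 2-fold.

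Ednrb, the endothelin receptor of the melanocyte lineage, gave 23.28 at day 6, 21.83 at day 14 and 22.50 at day 28. Only the day 6 value lay above the background. The log2 difference of day 14 against day 6 was -1.45 as measured. Since day 14 lay below the background, what was measured is a bound of at least 1.59-fold lower, and at least 1.39-fold lower at day 28 than at day 6. The other 2 probe sets of Ednrb stayed below the background on all arrays. The lower level thus rests on 1 probe set, which was 0.53 above the background at day 6.

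Kit, the receptor for stem cell factor, had 2 probe sets. In order of time the main one gave 22.19, 21.96 and 21.72, and the other 20.24, 20.85 and 20.46. All 6 values lay below the background, so no difference between times was read from them. With the background at the 75th percentile of the same silent probe sets (21.94, 21.97 and 21.87), the main one lay above it at day 6 alone. On chromosome 5 the protein-coding genes Pdgfra, Kit and Kdr follow each other, and the single Kdr probe set also lay below the background on all arrays, while Pdgfra did not.

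Fgfr1, a receptor for fibroblast growth factors, was the member that stood out in the first step. Its main probe set gave 26.01 at day 6, 27.29 at day 14 and 27.33 at day 28. The 2 later arrays were alike and both lay above day 6. Day 14 was 2.43-fold higher than day 6, a log2 difference of 1.28, and 4.76% of the described genes lay at least as far apart. Day 28 was 2.50-fold higher than day 6 and differed by 0.04 from day 14. Both other probe sets lay above the background on all arrays and showed the same course. They gave 23.73, 24.80 and 24.79 in one case and 23.05, 24.33 and 24.36 in the other, with differences of 1.07 and 1.28 for day 14 against day 6. Fgfr1 was the only one of the 10 with every probe set 2-fold higher at day 28 than at day 6, at 1.06, 1.31 and 1.32.

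The PDGF receptor genes differed in course. Pdgfra, the alpha receptor, typical of fibroblast and glial precursors, gave 23.88 at day 6, 24.26 at day 14 and 25.50 at day 28 on its main probe set. The day 28 array stood above the others. Day 28 was 3.06-fold higher than day 6 and 2.36-fold higher than day 14, and 2.09% of the described genes lay at least as far apart in the second step. The other 2 Pdgfra probe sets lay below the background on all arrays, so they gave no difference to read at that setting. One of them was annotated with the same sequence accession as the main one. With the background at the 75th percentile (21.94, 21.97 and 21.87), the brighter of the 2 lay above it on all arrays. In order of time it gave 22.7, 22.12 and 22.49. Its day 28 value thus differed by -0.2 from day 6, where the main one gave 1.61. From day 14 it differed by 0.38, where the main one gave 1.24. It did not show the 2-fold difference. The 2-fold call thus rests on 1 of 3 probe sets.

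Pdgfrb, the beta receptor, typical of pericytes and fibroblasts, gave 27.72 at day 6, 28.65 at day 14 and 27.93 at day 28. The day 14 array was the high one, and days 6 and 28 were alike. Day 14 was 1.90-fold higher than day 6, and day 28 was 1.64-fold lower than day 14, with log2 differences of 0.92 and -0.71. The other probe set gave 25.35, 26.32 and 25.47, with differences of 0.97 and -0.86. With reference genes set to equal means the first difference became 1.09, past 2-fold. Both steps use the day 14 array, so an error of that array alone would appear in them with opposite signs.

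Met, the receptor for hepatocyte growth factor, gave 28.21 at day 6, 27.67 at day 14 and 27.99 at day 28. The day 14 array was the lowest, with a log2 difference of -0.55 from day 6. Its other probe set lay above the background at day 6 alone. Axl, which binds GAS6, gave 29.23, 29.11 and 29.33 in order of time, and its other probe set 24.02, 23.90 and 24.25. The Axl values were alike at the 3 times, with differences of 0.22 or less on the main probe set. The sign of its small difference at day 14 against day 6, -0.12, turned to 0.05 when the arrays were set to equal means of reference genes.

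Erbb2, the EGF receptor family member with no known ligand of its own, had 1 probe set, with 25.01 at day 6, 25.52 at day 14 and 25.65 at day 28. Day 6 was the lowest, and day 28 was 1.56-fold higher than it. Egfr, the receptor for EGF and TGF-alpha, had 7 probe sets, of which 1 lay above the background on all arrays. That one gave 24.16 at day 6, 24.16 at day 14 and 24.26 at day 28, so its values were alike. A second lay just above the background at day 28 only, so no size of a difference was read from it. Another one gave 22.88, 22.48 and 22.89 and lay below the background at day 14. The other 4 stayed below it on all arrays. No Egfr probe set above the background on both arrays of a comparison was 2-fold apart.

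**Figure D2:**
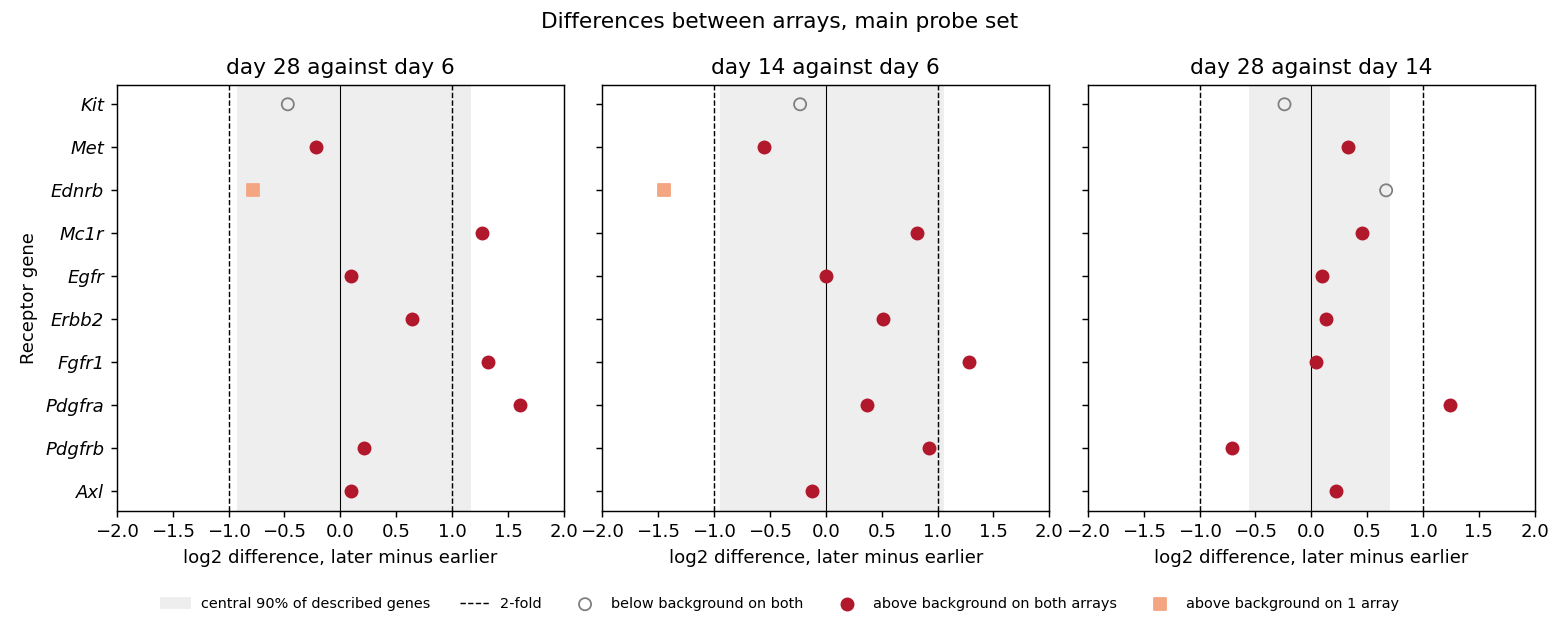
Log2 difference of the later minus the earlier array (horizontal axis) for the main probe set of each receptor gene (rows), in each of the 3 comparisons. The grey band holds the central 90% of the described genes, dashed lines mark 2-fold, filled circles were above the background on both arrays, squares on 1 array and open circles on neither. Mc1r, Fgfr1 and Pdgfra lie past the right dashed line for day 28 against day 6, and only Pdgfra does for day 28 against day 14.

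Counted over the genes described, 3 of 9 receptor genes were 2-fold higher and 0 lower at day 28 against day 6, where 6.55% of 11718 genes were higher and 4.05% lower. The median log2 difference of the 9 was 0.21, against 0.01 over all described genes. For day 14 against day 6, 1 of 9 was higher and 1 lower, where 5.46% of 11793 genes were higher and 3.92% lower. The median was 0.37, against -0.03. The lower one is Ednrb, whose bound is under 2-fold. For day 28 against day 14, 1 of 8 was higher and 0 lower, where 2.19% of 11728 genes were higher and 1.45% lower, and the median was 0.17, against 0.03. At 1.5-fold, 4 of 9 were higher and 1 lower for the first of these comparisons, where 15.7% of genes were higher and 12.3% lower. The counts were 3 and 1 of 9 for the second (13.4% and 14.3%), and 1 and 1 of 8 for the third (7.55% and 4.4%). With 10 genes, 1 gene moves such a count by a large share, and Pdgfra alone made the last count. When probe sets were averaged, which for Pdgfra mixes in those below the background, 2 receptor genes were higher at day 28 against day 6 and 0 at day 28 against day 14. The comparisons share arrays, so an error of the day 6 array would enter both of its comparisons with the same sign.

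**Figure D3:**
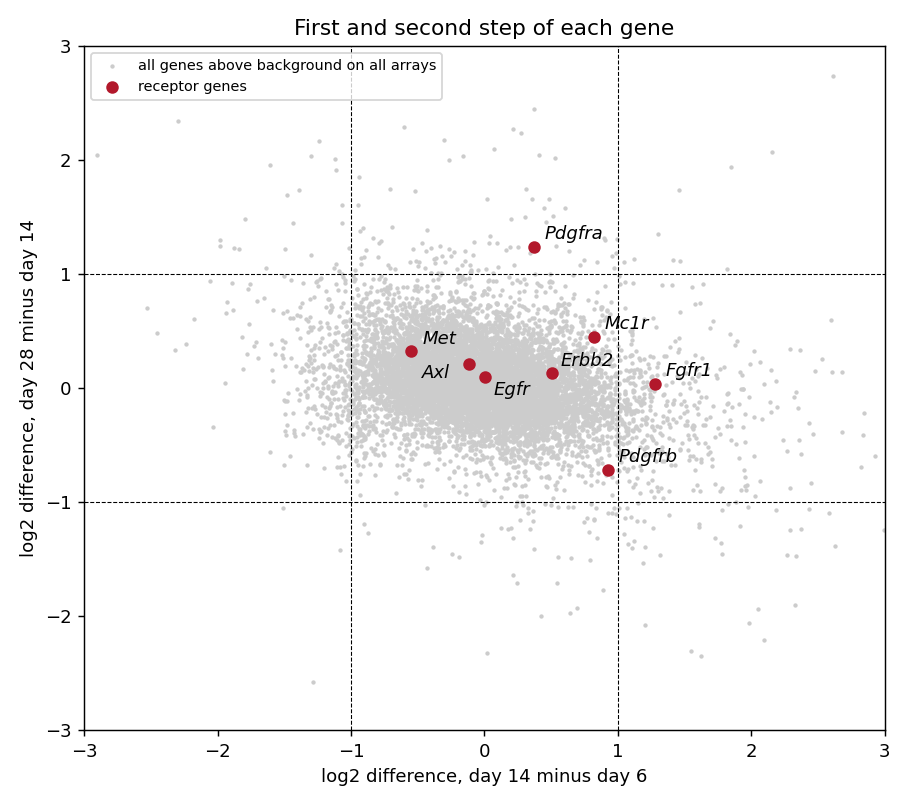
Log2 difference of day 28 minus day 14 (vertical axis) against that of day 14 minus day 6 (horizontal axis), for 10725 genes that exceeded the background throughout (grey) and the 8 receptor genes among them (red). Genes outside the axes are not drawn, dashed lines mark 2-fold, and the day 14 array enters both axes with opposite signs. Fgfr1 lies far to the right at 1.28 and 0.04, Pdgfra high at 0.37 and 1.24, and Pdgfrb right and low at 0.92 and -0.71.

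Genes whose course was most like that of Mc1r, Fgfr1 or Pdgfra were sought among 10725 genes that exceeded the background throughout, with the larger of the 2 step differences between a gene and the member as distance. With 3 arrays there are only 2 steps to compare, and many genes come close by this measure. For Fgfr1 the nearest were Tgfbr3, a co-receptor for TGF-beta, with steps of 1.29 and 0.06, then Eme2 and Tm7sf3, and 19 genes lay within 0.1. For Mc1r they were Dennd3 (0.82 and 0.50), 4933431E20Rik and Atg16l2, and 13 genes lay within 0.1. For Pdgfra they were Disp2 (0.34 and 1.19), Stc1 and Apcdd1, and 1 gene lay within 0.1.

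Among the ligands of these receptors, 12 of 27 on the array lay above the background on all arrays, 5 on some and 10 on none. The genes Fgf1 and Pros1 were 2-fold higher at days 14 and 28 than at day 6. Fgf1, a ligand of the FGF receptors, gave 24.98 at day 6, 26.81 at day 14 and 26.67 at day 28. Day 14 lay 3.55-fold above day 6, and its 2 other probe sets above the background gave differences of 1.40 and 2.05. For day 28 against day 6 they gave 0.88 and 1.21, so 1 of them was under 2-fold. Pros1, which encodes protein S, a ligand of the AXL family, had 1 probe set. It gave 25.79, 27.26 and 27.12 in the same order and was 2.78-fold higher at day 14. In both genes the 2 later arrays were alike and above day 6.

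Tgfa, a ligand of EGFR, gave 26.23 at day 14 against 25.21 at day 6, a 2.03-fold difference, but its other probe set above the background gave -0.36. Nrg1, which binds the ERBB3 and ERBB4 receptors, gave 23.12 at day 6 and lay below the background later, so it was at least 1.42-fold lower at day 14 and at least 1.24-fold lower at day 28. Edn1, an endothelin, was above the background at day 6 alone, at 22.86, and was at least 1.04-fold lower at day 28. In all, 2 of 17 ligand genes were 2-fold higher and 2 lower as measured for day 28 against day 6, where 6.55% of all described genes were higher and 4.05% lower. The median was -0.15, which turned to 0.02 with reference genes set to equal means and to 0.27 without shared probe sets. For day 14 against day 6, 3 of 16 were higher and 1 lower (5.46% and 3.92% of all), with a median of -0.12 that turned to 0.05 with equal reference genes. For day 28 against day 14 the count was 0 of 13 either way (2.19% and 1.45% of all), with a median of -0.03 that turned to 0.02 or 0.06 under other filters and probe sets.

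Ligands were also read beside the members they bind, and those in the rest of the paragraph were named after their values were seen. Kitl, the ligand of KIT, gave 27.16 at day 6, 26.64 at day 14 and 26.98 at day 28, while Kit lay below the background. Hgf, the ligand of MET, lay below the background on all arrays, at 21.91 or less, while Met lay above it. Gas6, the ligand of AXL, lay below the background on all arrays, while Pros1, a ligand of the AXL family, lay above it. Edn3, the endothelin best known in the melanocyte lineage, lay above the background at 24.00, 24.21 and 23.67, also at days 14 and 28, where Ednrb did not. Pdgfa, a ligand of the alpha PDGF receptor, gave 27.88, 28.02 and 28.09, which are alike. Pdgfb, a ligand of both PDGF receptors, gave 25.04 at day 6, 24.82 at day 14 and 24.09 at day 28, the lowest.

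**Figure D4:**
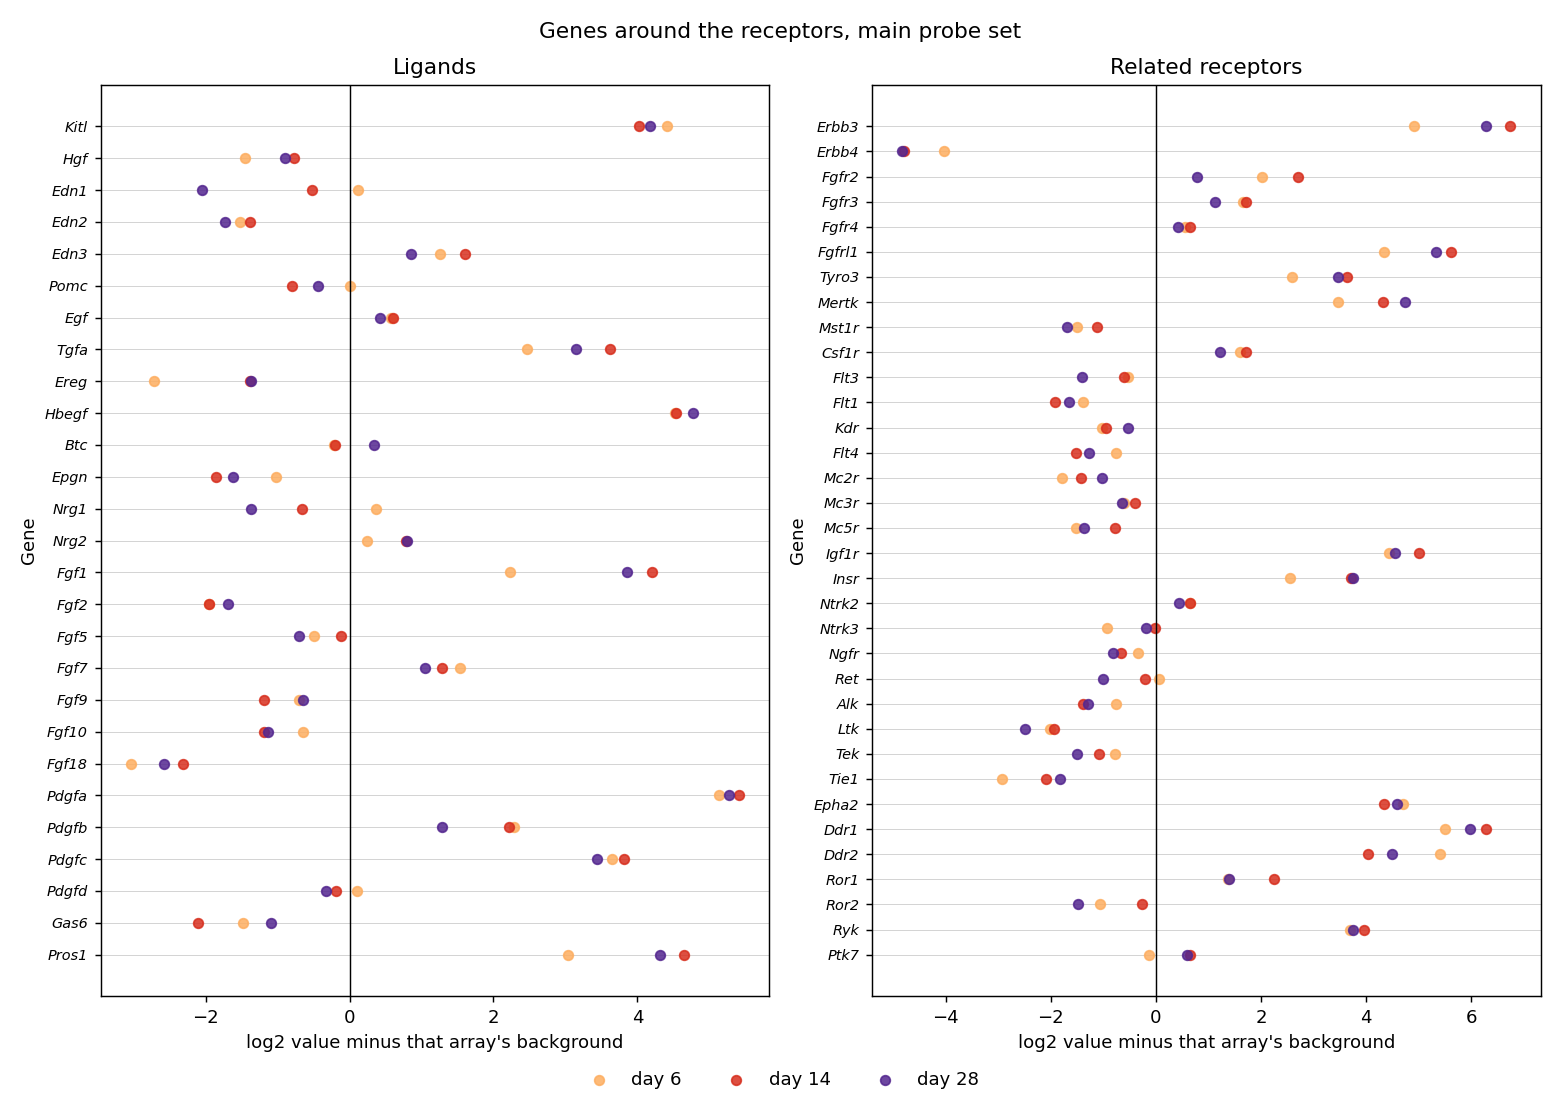
Log2 value of the main probe set minus the background of its array (horizontal axis), for ligand genes (left) and related receptor genes (right), with 1 point for each of days 6, 14 and 28. Points left of 0 were at or below the background. Fgf1, Pros1 and Erbb3 have day 6 well left of both later points, while Fgfr2 has day 28 on the left.

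Of 34 related receptor genes on the array, 16 lay above the background on all arrays, 2 on some and 16 on none. For day 28 against day 6, 4 of 18 were 2-fold higher and 2 lower, where 6.55% of all described genes were higher and 4.05% lower. The median was 0.11, which turned to -0.02 with the background at the 75th percentile and to -0.07 with no filter. For day 14 against day 6, 3 of 18 were higher and 1 lower (5.46% and 3.92% of all), with a median of 0.49. For day 28 against day 14, 0 of 17 were higher and 1 lower (2.19% and 1.45% of all), with a median of -0.01. Erbb3, the neuregulin receptor that pairs with ERBB2, gave 27.66 at day 6, 29.35 at day 14 and 29.09 at day 28. Day 14 lay 3.22-fold above day 6 on 1 of 2 probe sets, the other not being above the background on both arrays. Mertk, a relative of Axl, gave 26.22, 26.93 and 27.55 so that day 28 lay 2.52-fold above day 6. Each Mertk array was higher than the one before.

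Fgfr2 was lower at day 28, unlike Fgfr1. It gave 24.77 at day 6, 25.31 at day 14 and 23.59 at day 28, so day 28 was 2.25-fold lower than day 6 and 3.28-fold lower than day 14. Its other probe set above the background gave -1.18 and -1.23. Fgfrl1, an FGF receptor without a kinase domain, was 2.18-fold higher at day 14 and 2.06-fold higher at day 28 than at day 6, and a second probe set gave 1.10 and 1.08. Insr, the insulin receptor, lay 2.39-fold above day 6 at day 28 and 2.02-fold above it at day 14, but another probe set gave -0.12 for day 28. Ddr2, a collagen receptor, was 2.84-fold lower at day 14 than at day 6 (26.64 against 28.15), with -1.62 on its other probe set. Ret lay just above the background at day 6 alone (22.82) and was at least 1.01-fold lower at day 28.

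Of 33 genes described for adaptors and other proteins that act below the receptors, 2 were 2-fold higher and 1 lower for day 28 against day 6, near the shares of 6.55% and 4.05% over all genes, and the median was 0.34. For day 14 against day 6, 3 were higher and 1 lower, where 5.46% and 3.92% of all genes were, and the median was 0.19. For day 28 against day 14, 0 of 33 were 2-fold apart, where 2.19% of all genes were higher and 1.45% lower, and the median was 0.06. Adcy9, an adenylyl cyclase that makes cyclic AMP, gave 23.22 at day 6, 25.15 at day 14 and 25.26 at day 28. Day 14 lay 3.81-fold above day 6, and its second probe set gave 1.72. The adaptor genes Gab1 and Irs2 were 2.08-fold and 2.14-fold higher at day 14 than at day 6. The 2 other Gab1 probe sets gave 0.78 and 1.07, and Irs2 had 1 probe set. At day 28 against day 6 the 2 genes gave 0.86 and 0.52, under 2-fold. Nck2 gave 27.20 at day 28 against 26.20 at day 6, just at 2-fold, with 0.15 on its other probe set. Pik3cb, a catalytic subunit of phosphatidylinositol 3-kinase, was 2.17-fold lower at day 14 and 2.22-fold lower at day 28.

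Of the genes that end receptor signals or shed receptors and ligands, such as Cbl, a ubiquitin ligase, and Errfi1, an inhibitor of the EGF receptor family, 0 of 23 described were 2-fold apart for day 28 against day 6, where 6.55% of all genes were higher and 4.05% lower. The count was 0 of 22 for day 14 against day 6 (5.46% and 3.92% of all) and 0 of 23 for day 28 against day 14 (2.19% and 1.45% of all). Their medians were 0.31, 0.01 and 0.19 in that order, and the second turned to -0.07 with equal hybridization controls.

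Markers of the labelled cell type mostly lay above the background, some of them close to it. Of 13 melanocyte markers on the array, 9 lay above the background on all arrays, 1 on some and 3 on none. Those on none include Tyr, the enzyme that defines melanin synthesis, on all of its 3 probe sets. Pmel, counted above the background on all arrays, stood close to it at 23.07, 23.38 and 23.05, as did Slc45a2 at day 6 (23.11). Others stood well above the background at every time, as Tyrp1 (27.58, 29.67 and 27.47), Sox10 (27.62, 28.34 and 28.50) and Pax3 (27.49, 27.55 and 27.58). The list had a mean log2 value of 23.94, 25.78 and 25.09 in order of time. Mitf, the central transcription factor of the lineage, gave 23.67, 26.10 and 25.80 so that day 14 lay 5.40-fold above day 6. The other of its 2 probe sets was not above the background on both of these arrays. Mitf was thus higher in the same arrays as Fgfr1 and Mc1r, but the markers differed in course. At day 28 against day 14, Tyrp1, Oca2, Gpr143, Dct and Slc45a2 gave -2.21, -1.64, -1.31, -1.14 and -1.07. Oca2 was above the background at day 14 alone. Mc1r gave 0.45 in that comparison. At day 28 against day 6, Tyrp1, Pmel and Pax3 differed by 0.11 or less. The part of Mitf and the other markers in the receptor levels was not tested.

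Marker lists of other cell types were read beside the PDGF receptors. Of 10 fibroblast markers, 3 lay above the background on all arrays and 4 on none (Lum, Thy1, Twist1 and Twist2), and the list mean was 21.83, 22.48 and 22.31 in order of time. Those measured throughout differed in course. Ogn (24.29, 27.47 and 25.59) and Col3a1 (25.25, 26.31 and 25.17) were highest at day 14, as was Pdgfrb, while Col1a1 (23.97, 23.39 and 23.60) was lowest there. Of the 3 measured on some arrays, Col1a2 was above the background at day 6 alone, Fap at days 6 and 28, and Dcn was highest at day 28, at 23.05. Of 10 pericyte and smooth muscle markers, 3 lay above the background on all arrays and 5 on none, and the list mean was 23.31, 22.83 and 23.19. Notch3 (23.87, 25.17 and 26.53) was highest at day 28, as was Pdgfra, and Rgs5 was above the background only there, at 23.75. The other of the 2 Notch3 probe sets was not above the background on both arrays of any comparison. Acta2 (29.30, 28.79 and 28.27) and Tagln (28.68, 27.07 and 26.51) were lowest at day 28, at 2.04-fold and 4.51-fold below day 6. Cspg4 was above the background at day 14 alone, at 22.81. Their part in the levels of Pdgfra and Pdgfrb was not tested.

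Of 6 Schwann cell markers on the array, 3 lay above the background on all arrays and 2 on none, with a list mean of 23.89, 24.83 and 24.39. S100b and Cdh19 were 7.09-fold and 5.98-fold higher at day 14 than at day 6, Foxd3 differed by 0.75, and Mbp was lower, by at least 2.18-fold at day 28 against day 6. Of 8 endothelial markers 7 lay below the background on all arrays, Pecam1 among them, and the list mean was 21.41, 21.64 and 22.10. The exception was Cdh5, with 23.70 at day 6, 25.85 at day 14 and 27.93 at day 28. Day 28 thus lay 18.7-fold above day 6 and 4.21-fold above day 14, and was the highest array for Cdh5 as for Pdgfra. The other Cdh5 probe set was not above the background on both arrays of any comparison, so this rests on 1 of 2 probe sets.

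Of 9 leukocyte markers 5 lay below the background on all arrays, Ptprc among them, and 4 above it on all, with a list mean of 22.74, 22.73 and 23.12. Lyz2 gave 24.57, 27.17 and 27.31, so the 2 later arrays were the high ones, as for Fgfr1. Cd68 gave 25.09, 23.98 and 25.99, and day 28 lay 4.03-fold above day 14. Adgre1 and Csf1r differed by 0.31 or less between any 2 arrays. Of 9 keratinocyte markers 6 lay below the background on all arrays, Krt14 among them, and the 3 above it on all differed by 0.16 or less, with a list mean of 21.73, 22.13 and 22.11. The part of these markers in the levels of the receptor genes was not tested.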

How the data were processed

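The deposited table gives a value for each of 45101 probe sets, controls included, on each array. Per the labels, biotinylated cRNA was made by the Affymetrix protocol, while summarization, log base and software are not stated there. The deposited log2 values had been quantile normalized by the authors, as the 3 columns are identical once sorted, so a difference common to most genes cannot be seen. The values run from 1.46 to 30.6, so a constant or another scaling was applied, and a constant cancels in a difference. Base 2 was inferred, with hybridization control slopes of 0.77 to 0.80 per log2 unit of relative concentration, so folds are compressed for those controls, and a span of 9.16 to 9.23 from the median silent probe set to the 99.9th percentile.

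The platform annotation gave 1 gene for 34958 probe sets, several for 932 and none for 9211. Symbols were brought up to date with a RefSeq table of GRCm38.p6. Of 76 silent genes listed, 66 were matched. Where the dimmer array was at or below the background, a named difference is a bound, while counts and medians used values as measured. The members, gene lists and rules were chosen with earlier results of these data known. Named list genes include up to 4 per list, comparison and direction at 2-fold or more, and the 3 most alike genes per member. Some further genes of the lists are named for their level or course. Python 3.11.15, numpy 2.4.6, pandas 2.3.3 and matplotlib 3.10.9 were used, and the steps were tested on simulated data. The number of arrays limits the precision.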

Additional observations from a re-analysis of the deposited data

How the results depend on the processing

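Differences of single receptor genes under other choices of scaling, probe set, background, filter and dim values stayed within the probe set SD in 173 of 176 cases. The exceptions were Pdgfra with probe sets averaged (0.44 at day 28 against day 6 and 0.74 at day 28 against day 14, with both earlier averages below the background) and Ednrb with dim values raised to the background (-0.67 for day 14 against day 6). Many of the 176 cases could not move past that SD. The choices of background and filter leave a difference as it was, and each scaling shifts all genes alike by less than the SD. The 173 thus say little about how firm the differences are. When probe sets were averaged, Ednrb and Egfr, and Pdgfra at day 14 against day 6, lay below the background and gave no value. No receptor gene at 2-fold or more changed sign under these choices. The median of the receptors ranged from 0.11 to 0.44 for day 28 against day 6, from 0.19 to 0.55 for day 14 against day 6 and from 0.17 to 0.29 at day 28 against day 14. Medians of ligands, related receptors and inhibitors near 0 turned sign under some choices, as given with their counts. Equal means of reference genes moved the median of all genes by 0.17 for both comparisons with day 6, so folds against day 6 are relative to a scaling that is open by that much. Equal hybridization controls moved it by -0.08. No paired analysis was possible because each time point had 1 array.

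With equal reference genes, 2 receptor genes (with Pdgfrb) were 2-fold higher at day 14 against day 6, and the genes 2-fold lower numbered 315 for day 28 and 256 for day 14 against day 6. With probe sets averaged, 0 receptor genes were 2-fold lower at day 14 against day 6 and 0 higher at day 28 against day 14. With dim values raised to the background, 0 were lower at day 14 against day 6. With no filter more genes were counted, and 1304 were higher and 941 lower at day 28 against day 6. The numbers were 1139 and 985 at day 14 against day 6, then 752 and 585 at day 28 against day 14. At 1.5-fold they were 1839 and 1438, 1584 and 1687, and 886 and 516 in the same order. At that size 1 receptor gene was lower at day 28 against day 6 (Ednrb as measured), 3 were higher at day 14 against day 6 and 1 was lower at day 28 against day 14 (Pdgfrb).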
